A study of Drosophila melanogaster with 48 samples.

Results

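The late and the early brain after traumatic injury were compared within the w1118 strain, a white-eyed laboratory strain of Drosophila melanogaster: 6 libraries from brains taken at 4 hr against 6 from brains taken at 1 hr. These are 12 of the 48 libraries in the series, chosen by their labels alone, with 3 female and 3 male libraries at each time. The flies of both groups were mated adults of 10 to 14 days that had received 1 strike of the HIT device, in which a spring-driven vial hits a pad and injures the whole body, the closed head included. Every dissected brain, at both times and in the uninjured controls, was then kept under near-infrared (NIR) light of 2 hr before its RNA was taken, so 1 and 4 hr are the times of dissection and not of RNA collection, and a brain without light is not among these libraries. Each library was made from 15 ng of RNA of a single brain and read near the 3′ end of polyadenylated RNA. The 12 libraries of the same times and sexes from Tau-KO flies, which lack the microtubule protein tau, served as the nearest comparison.

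No gene was shown to differ between the late and the early brain once the number of genes was taken into account. Of 4483 genes with enough counts, 0 passed an adjusted p of 0.05 with edgeR's quasi-likelihood test (Benjamini-Hochberg), and the smallest adjusted p was 1.00. With DESeq2 the number was also 0. At an unadjusted p under 0.05, 74 genes differed with edgeR (1.65%) and 83 with DESeq2, where 5% of the genes tested would be 224 genes. With the further limit of a 2-fold difference, which is what "called" means here, 21 genes remained (0.468%): 6 were higher at 4 hr (0.134%) and 15 were lower (0.335%). The gene of the kinase Wnk was the clearest of those higher at 4 hr and the gene of the clock neuropeptide Pdf the clearest of those lower. In 11 of the 15 lower genes a single early male library, the male 1 hr replicate 2, held the highest level. The plot of all genes by size and p shows the 21 genes and the bulk around 0.

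**Figure D1:**
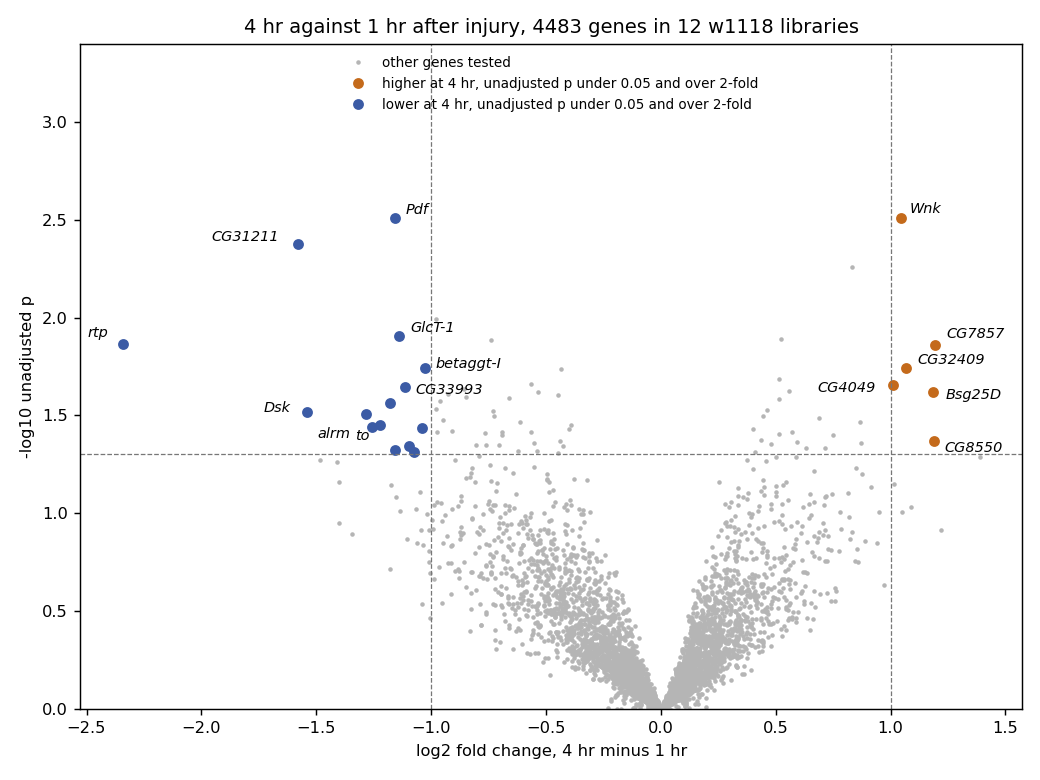
Each point is a gene tested in the 12 w1118 libraries, with the log2 fold change from 1 to 4 hr on the x axis and the significance by edgeR's quasi-likelihood test, as negative log10 of the unadjusted value, on the y axis (dashed lines at 0.05 and at 2-fold). The 6 orange genes were higher and the 15 blue genes lower at 4 hr, and none of them passed after adjustment.

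Mechanical injury of the fly brain is known to start within hours a response of innate immune genes, chaperones and stress kinases, in which glia take part as well as neurons. Antimicrobial peptides are made under the Imd and Toll pathways, heat shock proteins under the factor Hsf, and JNK signalling leads to repair or to cell death. Early and late brains can therefore differ in which of these responses is under way, and in genes that follow the time of day.

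Counts assigned to genes ranged from 59781 to 1668925 at 1 hr (median 563454) and from 258922 to 1038474 at 4 hr (median 513545), and 4869 to 8915 genes were detected in a library. In 3 of the 12 libraries the nearest other library of the series differed by more than 4 times the counting noise (chi-square per degree of freedom): the female 1 hr replicate 2 (6.69), the male 1 hr replicate 2 (11.8) and the male 4 hr replicate 1 (10.1). The same 3 libraries held the largest shares of a single transcript, MRE16, with 15.6, 31.7 and 28.7% of their counts against 1.63 to 9.14% in the other 9. The part of MRE16 in the results below was not tested, and values without these libraries are given instead. The male 1 hr replicate 3 was the shallowest, and 1 count in it was worth 13.6 CPM (normalised read counts, scaled to a common library total), so that levels in it are coarse. Markers of brain were present together with those of other tissues. Summed levels of 6 neuron markers lay between 1751 and 2801 CPM at 1 hr and between 2153 and 2831 CPM at 4 hr. Those of 8 muscle markers lay between 2558 and 3588 CPM at 1 hr and between 3310 and 3892 CPM at 4 hr, above the neuron sum in all but the male 1 hr replicate 3. Photoreceptor markers reached 2374 CPM in the male 4 hr replicate 1 against 6546 to 10544 CPM in the other 11 libraries. Fat body markers were at 1169 CPM in the male 1 hr replicate 2 and 990 CPM in the male 4 hr replicate 1 against 3715 to 5473 CPM in the others. The 9 gut markers summed to 544 to 1024 CPM at 1 hr and 554 to 991 CPM at 4 hr, mostly from Jon65Aiii (median 608 CPM) and Amy-p (median 132 CPM), with deltaTry and Jon65Ai at 0. The part of these tissues in the results was not tested. The male dosage compensation RNA roX1 had a median of 893 CPM in libraries labelled female and 946 CPM in those labelled male, so female and male are used below as labels only. In tissue RNA fewer cells of a type and less RNA per cell cannot be told apart.

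Wnk codes for a kinase that senses chloride and controls ion cotransport through the kinase Fray. Its level, as CPM scaled by TMM over the 24 w1118 libraries, ran from 15.8 over a median of 29.0 to 31.5 at 1 hr and from 39.5 over 52.0 to 105 at 4 hr. All late libraries lay above all early ones. Only 1 other gene, Nna1, which codes for a cytosolic carboxypeptidase, had groups that did not overlap with 4 hr higher, 2 of 4483 genes in all (0.0446%), and no gene had such groups with 4 hr lower. The means of Wnk were 27.2 ± 5.98 CPM (SD, n = 6) and 58.9 ± 23.8 CPM (SD, n = 6), and the log2 fold change fitted to the 12 libraries was 1.04 (standard error 0.30; edgeR unadjusted p = 0.0031, adjusted p = 1.00). An exact two-sided permutation of the times within each sex gave p = 0.005 for Wnk, the smallest that the 400 arrangements allow. The called genes were picked from 4483 by the same values. Neither the permutation p-values given for them nor the lack of overlap is therefore separate support. In females the fold change of Wnk was 0.94 on the log2 scale and in males 1.16. Without the male 4 hr replicate 1, the highest library, it was 0.83, and without all 3 libraries that stand apart 0.73 (edgeR unadjusted p = 0.014), both short of 2-fold. These levels rest on few reads, 2 to 38 counts of Wnk in a library at 1 hr and 16 to 42 at 4 hr.

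For Nna1 the early libraries ran from 0 to 102.3 CPM and the late ones from 102.6 to 178 CPM. The upper early and the lower late library were thus almost level, and the 0 was in the shallow male 1 hr replicate 3. From early to late Nna1 differed by 0.63 on the log2 scale (standard error 0.29; edgeR unadjusted p = 0.046, adjusted p = 1.00), under the 2-fold limit.

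The other 5 genes higher at 4 hr were Bsg25D, whose product is the fly relative of the centrosome protein ninein, and CG7857, CG32409, CG4049 and CG8550, known here by number only. CG7857 ran from 4.97 to 13.6 CPM at 1 hr (median 8.49) and from 7.52 to 24.5 CPM at 4 hr (median 20.04), with a log2 fold change of 1.20 (standard error 0.43; edgeR unadjusted p = 0.014). It kept its call with each library left out in turn, at 1.00 to 1.35, and without the 3 libraries that stand apart, at 1.34. CG4049 was at 4.87 to 13.6 CPM at 1 hr and 12.5 to 29.9 CPM at 4 hr, and only the lowest late library reached into the early range. For both CG7857 and CG4049 the early maximum of 13.6 CPM was 1 count in the shallow male 1 hr replicate 3. CG32409 overlapped more, with 5.32 to 14.6 CPM at 1 hr and 10.9 to 30.1 CPM at 4 hr. Bsg25D was at 21.9, 23.1 and 18.6 CPM in early females and 13.98, 29.5 and 28.4 CPM in late females, which do not separate. In males it was at 5.32, 6.63 and 13.6 CPM at 1 hr and 67.7, 27.9 and 37.5 CPM at 4 hr, which do. The early male values rest on few counts, as 1 count was worth 2.66, 0.828 and 13.6 CPM in these libraries. CG8550 lay between 2.51 and 41.9 CPM at 4 hr, with its lowest value of the 12 libraries in a late one (exact permutation p = 0.30).

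Pdf, the pigment-dispersing factor that a few clock neurons release to keep daily activity in phase, was at 26.6 to 95.3 CPM at 1 hr (median 62.9) and 19.6 to 32.1 CPM at 4 hr (median 26.5). The early levels were spread widely and the late ones were all low. The highest, 95.3 CPM, was in the shallow male 1 hr replicate 3, where 1 count is 13.6 CPM. Early libraries averaged 59.5 ± 25.8 CPM (SD, n = 6) and late ones 25.9 ± 4.86 CPM (SD, n = 6). The log2 fold change of Pdf was -1.16 (standard error 0.33; edgeR unadjusted p = 0.0031, adjusted p = 1.00; exact permutation p = 0.02), and it was -1.16 in females and in males alike. Its call held with each library left out, at -1.32 to -1.02. Without the 3 libraries that stand apart it was -0.80 (edgeR unadjusted p = 0.038), and without the shallow male 1 hr replicate 3 as well it was -0.59 (edgeR unadjusted p = 0.096).

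CG31211 was at 10.2 to 81.7 CPM at 1 hr (median 26.3) and 2.18 to 20.1 CPM at 4 hr (median 10.3). Its log2 fold change of -1.58 had a standard error of 0.47 (edgeR unadjusted p = 0.0042). CG31211 was called with each library left out, at -1.82 to -1.39, and without the libraries that stand apart, at -1.44. betaggt-I, the beta subunit of the enzyme that attaches geranylgeranyl lipid to small GTPases, ran from 17.5 to 81.7 CPM at 1 hr and from 6.55 to 22.6 CPM at 4 hr. Its log2 fold change of -1.03 had a standard error of 0.39 (edgeR unadjusted p = 0.018; exact permutation p = 0.005), and without the libraries that stand apart it was also -1.03. For both genes the highest library was the shallow male 1 hr replicate 3, where 81.7 CPM are 6 counts. Without the libraries that stand apart and this one, the log2 fold change was -1.12 for CG31211 (edgeR unadjusted p = 0.054) and -0.75 for betaggt-I (edgeR unadjusted p = 0.10). GlcT-1, the glucosylceramide synthase, was at 13.6 to 46.3 CPM at 1 hr and 6.99 to 17.3 CPM at 4 hr, a log2 fold change of -1.14, and was at -0.40 without the libraries that stand apart.

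**Figure D2:**
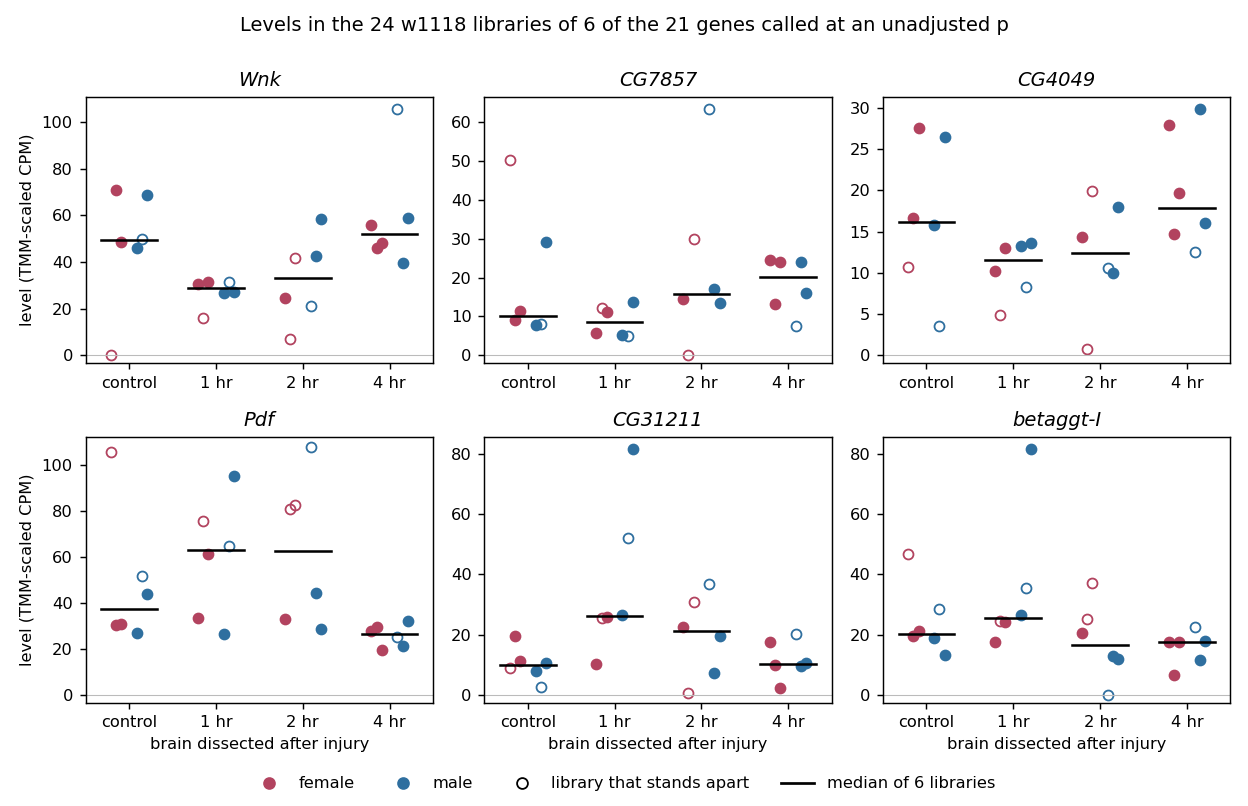
TMM-scaled CPM of 6 of the 21 genes in the 24 w1118 libraries by time of dissection after injury, with females in red, males in blue, open circles for libraries that stand apart and a bar at the median of 6 libraries. For Wnk the 6 early libraries lie between 15.8 and 31.5 CPM and the 6 late ones between 39.5 and 105 CPM. For Pdf the late libraries lie between 19.6 and 32.1 CPM while early ones reach 95.3 CPM, a value of the shallow male 1 hr replicate 3.

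The remaining 11 lower genes had their highest level of the 12 libraries in the male 1 hr replicate 2. That library held the highest level of 846 of the 4483 genes tested (18.9%). The takeout gene to, a clock-controlled gene of feeding and male courtship, was at 77.2, 597 and 40.8 CPM in the male and 92.1, 98.7 and 74.2 CPM in the female early libraries. Late libraries held 37.6 to 101 CPM of it, and apart from the 1 high value the groups covered the same range. With all libraries to stood at -1.22 on the log2 scale (edgeR unadjusted p = 0.0355) and -0.17 without that library (edgeR unadjusted p = 0.51). CG13324, 1 of the 21 that the naming rule did not reach and which is given because of its values, had 621 CPM there and 40.8 to 116 CPM in the other early libraries. Its log2 fold change went from -1.10 to -0.17 when the library was left out.

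Dsk, the neuropeptide gene of drosulfakinin, a satiety signal related to cholecystokinin, was at 261 CPM in the male 1 hr replicate 2 and 104 CPM in the female 1 hr replicate 2, against 12.99 to 54.4 CPM in the other early libraries and 13.1 to 55.2 CPM in the late ones. Both high libraries are among those that stand apart, and without the 3 of them the log2 fold change of Dsk turned from -1.54 to 0.20. alrm, a leucine-rich repeat gene of astrocytes, was at 152 CPM in the male 1 hr replicate 2 against 0 to 37.8 CPM in the other early libraries, and its log2 fold change of -1.26 became -0.31 without it. The blue opsin gene Rh5 of the R8 photoreceptors was at 118 CPM there, against 0 to 20.5 CPM in the other early and 3.50 to 27.9 CPM in the late libraries, and its log2 fold change of -1.16 became -0.24. For rtp, retinophilin of the photoreceptors, the library held 74.5 CPM against 2.66 to 30.5 CPM in the other early libraries and 0 to 11.5 CPM in the late ones. For rtp the log2 fold change of -2.34 (standard error 0.84) was the lowest of all genes tested and stood at -1.10 without the library (edgeR unadjusted p = 0.18). Npc1a, the sterol transporter of Niemann-Pick type C disease, was at 95.3 CPM there and 6.99 to 59.7 CPM in the other 11 libraries. CG1640, CG4887, CG33993 and alpha-catenin-related were at 78.7, 34.8, 71.2 and 82.8 CPM in that library, close to the next highest early library for CG4887 (31.9 CPM) and CG33993 (68.0 CPM, in the shallow male 1 hr replicate 3). Without the male 1 hr replicate 2 their log2 fold changes lay between -0.82 and -0.48, and none was called.

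**Figure D3:**
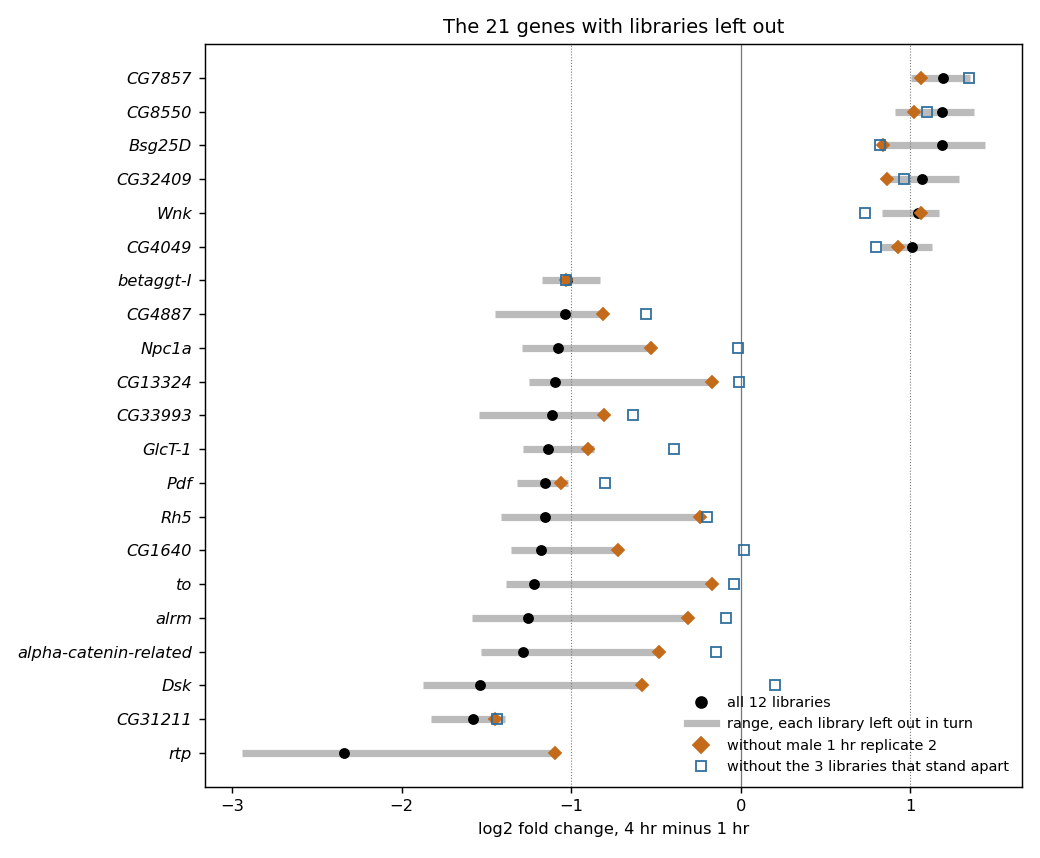
Log2 fold change from 1 to 4 hr of the 21 genes with all 12 libraries (black), the range when each library was left out in turn (grey bar), the value without the male 1 hr replicate 2 (orange) and without the 3 libraries that stand apart (open blue squares; rtp had too few counts). For to, CG13324, Rh5 and alrm the orange value lies between -0.31 and -0.17, whereas for CG31211 it is -1.45 and for Pdf -1.06.

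Leaving out the male 1 hr replicate 2 left 19 genes called, 5 of them among the 21: Wnk, CG7857, Pdf, CG31211 and betaggt-I. Without the 3 libraries that stand apart 64 genes were called, 32 higher and 32 lower, at adjusted p of 0.64 or more in edgeR. Only 4 of the 21 were among them, CG7857, CG8550, CG31211 and betaggt-I. Across each library left out in turn, CG7857, Pdf and CG31211 alone kept their call every time. With the replicate number as a block 10 of the 21 kept their call, Wnk, CG7857, CG32409, CG4049, Pdf, CG31211, GlcT-1, rtp, betaggt-I and CG33993. Bsg25D (1.11, edgeR unadjusted p = 0.052) and CG8550 (0.96, edgeR unadjusted p = 0.092) lost it, as did Dsk, to, CG13324, alrm, Rh5, Npc1a, CG1640, CG4887 and alpha-catenin-related, at -1.07 to -0.63.

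For many of the large gene groups the data set a limit on how far they differed from early to late, relative to the bulk of genes. TMM scaling centres the bulk of genes near 0, so a change shared by most genes would not show. The 95% interval of the fold change lay within 2-fold for 2567 genes (57.3%). The median log2 fold change of all genes, which this scaling holds near 0, was -0.02. The lists below were scored by their median and by the number of members called, beside the 0.468% called over all genes. Of 79 cytosolic ribosomal protein genes 0 were called, the median was -0.03, and 74 had an interval within 2-fold. Nuclear genes of the respiratory chain had a median of 0.01, with 59 of 69 within 2-fold, and translation factors one of 0.00, with 32 of 41. Genes of glycolysis and sugar metabolism had a median of 0.07 (16 of 19 within 2-fold) and antioxidant enzymes of -0.05 (11 of 13). The superoxide dismutase genes Sod1 and Sod2 had log2 fold changes of -0.19 (standard error 0.18) and -0.18 (standard error 0.19). Mitochondrial ribosomal protein genes spread more widely, from -0.91 for mRpS28 to 0.83 for mRpS33, around a median of -0.02, with 24 of 44 within 2-fold. Vacuolar proton pump genes lay below 0 in 16 of 18 cases, against 2403 of 4483 over all genes tested. Their median was -0.16, and without the libraries that stand apart it was 0.11.

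Genes of the injury response were not called either, but their fold changes were less well bounded. The interval lay within 2-fold for 7 of 12 heat shock genes, 13 of 22 genes of the immune pathways, 6 of 14 genes of JNK and cell death and 2 of 8 activity-regulated genes. None of the 12 heat shock genes was called (median 0.02), and the chaperone gene Hsp83 was at 0.07 on the log2 scale (standard error 0.15). Hsp26, a small heat shock protein, had the highest log2 fold change of this list at 0.59 (standard error 0.51). Of 22 genes of the Imd, Toll and JAK-STAT pathways 0 were called, between -0.67 for the adaptor imd and 0.73 for the kinase hop. The NF-kappaB factor Rel was at -0.10 (standard error 0.27). In the JNK and cell death list 0 of 14 were called and the JNK phosphatase gene puc, a readout of the pathway, was at -0.13 (edgeR unadjusted p = 0.59). The Jun factor gene Jra, which is also on the activity-regulated list, was the lowest of both lists at -1.04, with a standard error of 0.95 that leaves its direction undetermined. Among 8 activity-regulated genes the nuclear receptor gene Hr38 had mean levels of 42.9 CPM at 1 hr and 62.8 CPM at 4 hr, a log2 fold change of 0.59 (edgeR unadjusted p = 0.052). The median of that list was 0.16, the highest of the 34 lists, and 0 of its genes were called. Of 32 genes that the study discusses by name 19 could be tested and 0 were called. The study chose these genes with the same samples in hand, so their directions are not independent evidence. Among them tau was at -0.04 to 0.71 in its 95% interval around 0.34 (edgeR unadjusted p = 0.074). Of the 19 genes 13 were below 0, against 2403 of 4483 over all genes tested. The lowest was Cdk5alpha, the activator of the neuronal kinase Cdk5, at -1.40 (standard error 0.83; edgeR unadjusted p = 0.11), and the highest the glial factor repo at 0.89 (standard error 0.57; edgeR unadjusted p = 0.14).

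**Figure D4:**
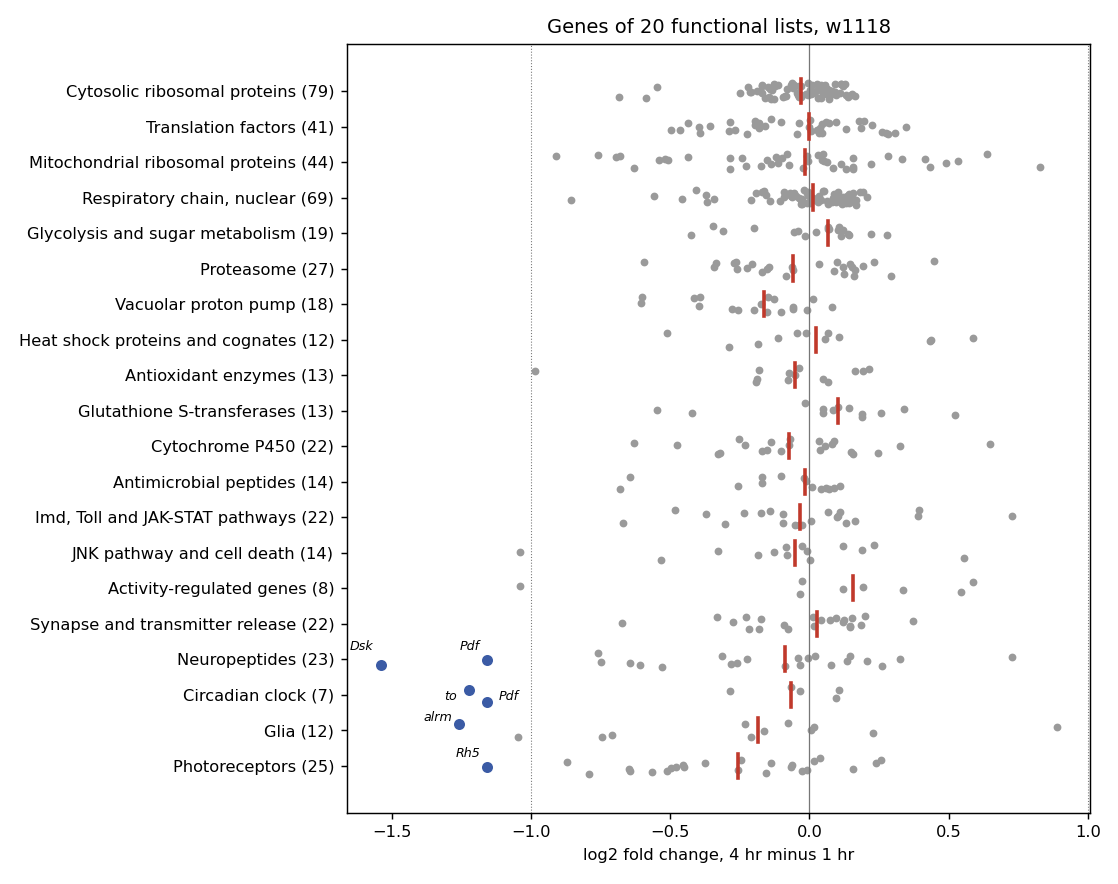
Log2 fold change from 1 to 4 hr of every tested gene in 20 functional lists (number of genes tested in parentheses), with the list's median as a red bar and called genes in blue. Medians lie between -0.26 for photoreceptor genes and 0.16 for activity-regulated genes, and the called genes of these lists are Dsk, Pdf, to, alrm and Rh5.

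Of the 34 lists 5 held called genes: the circadian, neuropeptide, glial, photoreceptor and lipid lists. In the circadian list 2 of 7 genes were called lower, Pdf and to, while the core clock gene tim was at 0.10 with a standard error of 0.25 and the median of the list was -0.06. The neuropeptide list had 2 of 23 called lower, Pdf and Dsk, and a median of -0.09. Its insulin-like peptides Ilp2, Ilp3 and Ilp5 were at -0.64, -0.76 and 0.33, none of which passed. Summed over the list, neuropeptide RNA ran from 3579 to 7818 CPM at 1 hr and from 4471 to 6812 CPM at 4 hr. Among 12 glial genes alrm was called, the median was -0.19, and the abundant glutamine synthetase gene Gs2 and the glutamate transporter gene Eaat1 were at 0.00 (standard error 0.15) and 0.02 (standard error 0.22). The GABA transporter gene Gat was at -1.05 with a standard error of 0.55 and did not pass. Its highest count, 1296, was in the male 1 hr replicate 2, the deepest library, against 9 to 133 counts in the others. None of 22 synaptic genes was called, 20 of them with an interval within 2-fold. Photoreceptor genes had the lowest median of the lists, -0.26, with Rh5 called and 20 of 25 below 0, against 2403 of 4483 over all genes tested. Their summed level was 15067 CPM in the male 1 hr replicate 2 and 6052 CPM in the male 4 hr replicate 1, and between 10696 and 12411 CPM in the other 10 libraries. The median of the list was -0.00 in females, where neither library enters, -0.52 in males, and 0.05 without the libraries that stand apart. In the lipid list 1 of 13 genes, Npc1a, was called. In the 29 other lists 0 genes were called.

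By sex, 9 genes were called in females (0.201%), 6 higher (0.134%) and 3 lower (0.0669%), and 150 in males (3.35%), 57 higher (1.27%) and 93 lower (2.07%), all at adjusted p of 0.89 or more with edgeR. At an unadjusted p under 0.05 without the fold limit the numbers were 16 (0.357%) and 244 (5.44%). DESeq2 called 8 and 160 genes. Whether a gene differed between the sexes was tested directly: 106 of 4483 genes were called (2.36%), 53 in each direction (1.18%), 120 passed an unadjusted p under 0.05 at any fold (2.68%), and with edgeR and DESeq2 0 passed after adjustment. All 21 genes called in both sexes together had the same direction in females and in males. Choosing them by the fit over both sexes favours this, so it is no separate evidence. Ranked by p, the first 4 on either side were SppL, Lis-1, CG1358 and CG8944, with the more positive change in females, and CG5455, Bsg25D, CG6364 and gcl, with the more positive change in males. SppL, a signal peptide peptidase-like protease, was at 30.7, 25.6 and 40.8 CPM in early and 48.9, 44.2 and 98.2 CPM in late females. In males it was at 63.9, 50.5 and 122 CPM early and 25.1, 34.7 and 28.6 CPM late. The 122 CPM was in the shallow male 1 hr replicate 3, where 1 count is 13.6 CPM. The ranges did not overlap in either sex, and the log2 fold changes of 0.98 and -1.25 differed by 2.23 (standard error 0.60; edgeR unadjusted p = 0.0025, adjusted p = 1.00). Lis-1, a regulator of the motor dynein, had no overlap either. Its female levels were 18.6 to 25.6 CPM early and 30.6 to 41.9 CPM late. Male levels were 40.8 to 55.9 CPM early and 20.1 to 24.1 CPM late, and the 40.8 CPM was again in the shallow male 1 hr replicate 3. The difference was 1.799 (standard error 0.51; edgeR unadjusted p = 0.0035, adjusted p = 1.00). Both genes were picked by their p in this test, so the lack of overlap is no separate support. How many of all genes separate in this way was not counted.

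Antimicrobial peptide genes had a median of -0.02 over both sexes, with 0 of 14 called, but opposite signs in the 2 sexes. All 14 were lower at 4 hr in females (median -0.57) and 13 of 14 were higher in males (median 0.55). The pattern of lower in females and higher in males was found in 13 of the 14 (92.9%) and in 25.9% of all genes tested. It was also frequent in other lists, among them glycolysis (11 of 19), cytosolic ribosomal proteins (43 of 79), the respiratory chain (33 of 69), antioxidant enzymes (6 of 13) and the proteasome (12 of 27). Only drosocin, Dro, was called for the sex difference, with log2 fold changes of -1.59 in females and 1.90 in males, a difference of -3.49 and a standard error of 1.21 (edgeR unadjusted p = 0.012, adjusted p = 1.00). Female levels of Dro were 130, 705 and 79.8 CPM early and 73.4, 183 and 50.2 CPM late, and male levels 39.9, 83.7 and 68.0 CPM early and 516, 151 and 82.1 CPM late. In each sex 1 library was far above the others, the female 1 hr replicate 2 and the male 4 hr replicate 1, and both stand apart. Without the female 1 hr replicate 2 the difference between the sexes for Dro was -1.88 and was not called (edgeR unadjusted p = 0.071), and without the male 4 hr replicate 1 it was -2.40 (edgeR unadjusted p = 0.0498). Without all 3 libraries that stand apart it was -1.35 (edgeR unadjusted p = 0.083). Summed antimicrobial peptide RNA was 8940 CPM in the first of these, against 2640 to 4615 CPM in the other 11 libraries. For AttC, attacin C, the female 1 hr replicate 2 held 350 CPM and the next highest of the 12 libraries 93.4 CPM. Without the libraries that stand apart the median of the list was 0.40 over both sexes, and 0 of its genes were called.

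**Figure D5:**
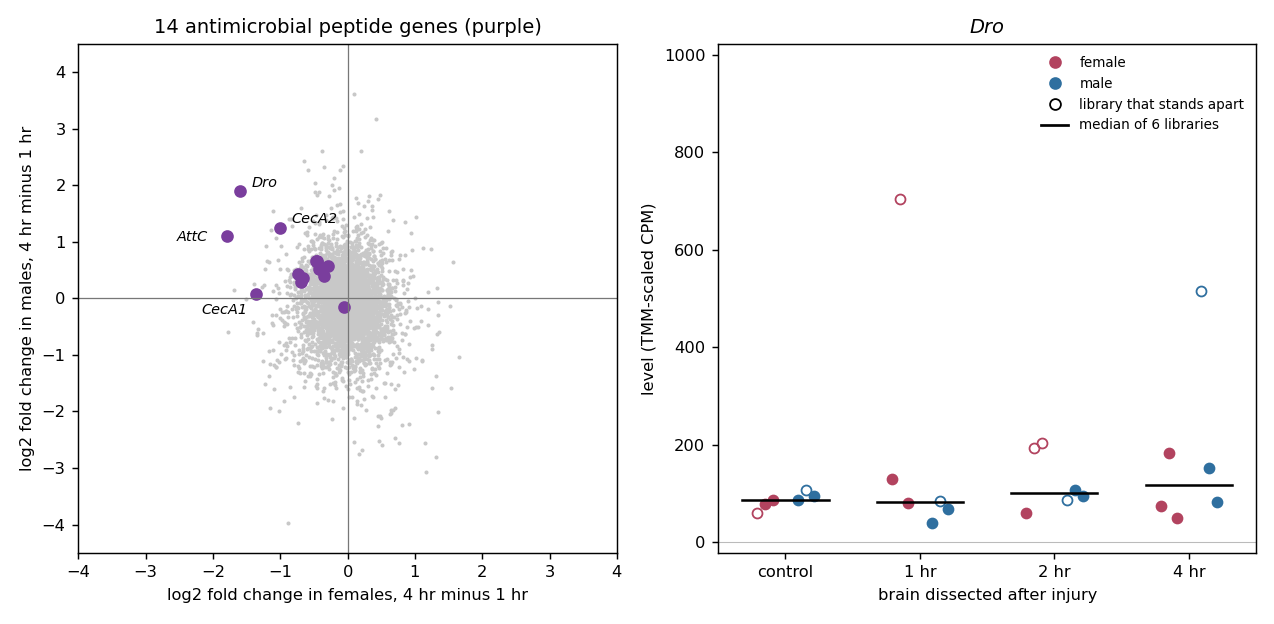
Left, log2 fold change from 1 to 4 hr in females (x axis) and males (y axis) of all 4483 genes (grey) and the 14 antimicrobial peptide genes (purple), of which 13 lie to the left of 0 and above 0. Right, TMM-scaled CPM of Dro in the 24 w1118 libraries by time after injury (open circles, libraries that stand apart; bars, medians of 6), where the female value of 705 CPM at 1 hr and the male value of 516 CPM at 4 hr are the 2 highest.

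Of the 12 Tau-KO libraries 4 stand apart, replicate 2 of each sex at each time (chi-square per degree of freedom 4.81 to 9.42). In Tau-KO brains the same comparison called 84 of 4415 genes (1.90%), 10 higher (0.227%) and 74 lower (1.68%), with 244 at an unadjusted p under 0.05 of any fold (5.53%) and 0 after adjustment in edgeR. The difference between the strains was called for 151 of 4970 genes (3.04%), 108 with the more positive change in w1118 (2.17%) and 43 with the more negative (0.865%), with 246 at an unadjusted p under 0.05 of any fold (4.95%) and 0 after adjustment in edgeR and in DESeq2. Without the libraries that stand apart 34 of 4083 genes were called in Tau-KO, 17 in each direction and 0 after adjustment in edgeR. The strain difference was then called for 272 of 4594 genes, 7 of them after adjustment and none of these 7 among the 21. Of the 21 genes 15 were tested in Tau-KO and 10 of them had the same direction there. The share of all genes with the same direction in both strains was not counted, so this number has no baseline. Pdf had a log2 fold change of 0.25 in Tau-KO, and the strains differed by -1.48 (standard error 0.56; edgeR unadjusted p = 0.014, adjusted p = 0.92). Wnk was at 0.05 in Tau-KO, a difference of 0.99 (standard error 0.45; edgeR unadjusted p = 0.038, adjusted p = 0.92). Without the libraries that stand apart the strain difference was -0.95 for Pdf (edgeR unadjusted p = 0.078) and 0.73 for Wnk (edgeR unadjusted p = 0.087), so neither passed. CG31211 was at 0.89 in Tau-KO, and its difference of -2.53 between the strains was -2.53 also without those libraries (edgeR unadjusted p = 0.0029). CG32409, CG33993 and CG4049 also differed between the strains at an unadjusted p under 0.05, of which CG32409 alone (3.04) did so without those libraries. Of the 11 genes highest in the male 1 hr replicate 2, 10 were tested in Tau-KO and 8 of these were below 0 there, from -0.88 for Dsk to 0.59 for CG33993, with CG4887 at 0.22 and alrm at -0.05. The median of all genes tested was -0.004 in Tau-KO, and the share of them below 0 there was not counted.

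The control and 2 hr libraries were not part of the main comparison, and their levels are given as a description. Wnk had a median of 49.2 CPM in the control, 29.0 CPM at 1 hr, 33.2 CPM at 2 hr and 52.0 CPM at 4 hr, so the late median was near that of the control and the early one below it. Control values of Wnk nevertheless ran from 0 to 70.9 CPM, and the 0 was in the female control replicate 1, 1 of the libraries that stand apart. Pdf had medians of 37.2, 62.9, 62.6 and 26.5 CPM in the same order, and CG31211 of 9.78, 26.3, 21.1 and 10.3 CPM. For CG31211 the late median was again close to the control. CG7857 had medians of 10.2, 8.49, 15.7 and 20.04 CPM, with the early level nearer to the control.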

How the data were processed

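Reads of 48 libraries were counted per gene by the authors: CASAVA 1.8.2 for demultiplexing, STAR 2.4 for alignment to dm3, HTSeq for counting, whose strand and overlap settings are not given in the sources used here, so overlapping and antisense genes may share reads. The deposited values are raw counts of 16995 genes, not normalized, 5 of which carry a spreadsheet date as their name. Non-gene rows held 25.3 to 51.3% of the counts of the 12 libraries and were left out. The authors' comparison tables (log2 fold changes, likelihood ratios, p-values, FDR from edgeR 3.22.3) were not used.

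The 12 libraries were filtered with filterByExpr on the sex-by-time groups, scaled by TMM and fitted in edgeR 4.0.16 (R 4.3.3) with glmQLFit and glmQLFTest, with sex as covariate, or with 1 mean per group for each sex, the sex difference and, with Tau-KO, the strain difference. p-values were adjusted over all genes by Benjamini-Hochberg. They measure the spread between libraries, which the study gives as single brains and biological replicates. As roX1 levels overlapped between the sex labels, the origin of the libraries rests on the labels alone. The coefficient of variation between libraries was 0.351. Standard errors were taken from the F statistic, and 229 genes whose p the tool raised to that of a Poisson fit got no interval. Permutation tests used log2(CPM + 1). The workflow was tested on simulated data.

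Members, gene lists and tests were chosen with earlier results of these data known. The naming rule took the 12 genes of smallest p in each direction among those called, called list members, the first 4 genes by p on either side of the sex difference, tau, repo and label checks, and genes the study names. Dro is a gene the study names. Nna1, CG13324 and other list members were named after their values were seen.

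Alternatives were DESeq2 1.42.0 and its size factors, a fit blocked by replicate number, no filter on low counts, leaving out single libraries, all 24 w1118 libraries in the fit, a trend over 1, 2 and 4 hr, no sex term, and leaving out libraries under 100000 counts. Leaving out those that stand apart (chi-square per degree of freedom over 4 against the nearest library, from genes that reached 20 counts over both) was chosen after seeing the data, for Tau-KO as well. Deviations from the group mean over 2000 genes correlated between same-numbered female libraries at 0.42, 0.63 and 0.19, all over 0.1. The female 1 hr replicate 3 correlated more with the 4 hr replicate 1, at 0.29. In males the same-numbered correlations were -0.46, -0.17 and 0.55, and the 1 hr replicate 2 and 4 hr replicate 1 reached 0.57. Whether the numbers pair libraries is therefore not settled in either sex.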

Additional observations from a re-analysis of the deposited data

Results flagged for a closer look

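There were 42 groups of 6 libraries (21 genes at 2 times). A library was counted as far from the other 5 where its gap to the nearest was over 0.625 of the range of the group. For 6 values of 1 normal distribution chance gives this in about 1 in 20 groups. That rate need not hold here, with both sexes in a group, genes picked by their values and a skewed CPM scale. On log2(CPM + 1) there were 3. CG31211 at 4 hr was lowest in the female replicate 3 with 2.18 CPM, Wnk at 1 hr in the female replicate 2 with 15.8 CPM, and to at 1 hr was highest in the male replicate 2 with 597 CPM. On the CPM scale there were 9, of which 7 had not been found on the log scale. At 1 hr the male replicate 2 was highest for CG13324 (621 CPM), Dsk (261 CPM), alrm (152 CPM) and Rh5 (118 CPM), and the shallow male replicate 3 for CG8550 (27.2 CPM) and betaggt-I (81.7 CPM). At 4 hr the male replicate 1 was highest for Wnk (105 CPM).

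The change from 1 to 4 hr differed between the sexes at an edgeR unadjusted p under 0.05, but not after adjustment, in 9 named genes. The log2 fold change in females minus that in males was 2.23 for SppL, 1.799 for Lis-1, 1.15 for CG1358, 2.83 for CG8944, -2.30 for CG5455, -2.41 for Bsg25D, -1.94 for CG6364, -2.35 for gcl and -3.49 for Dro. It differed between the strains, on the same terms, in 6 of the 21 genes. The log2 fold change in w1118 minus that in Tau-KO was -2.53 for CG31211, 3.41 for CG32409, -1.65 for CG33993, 1.66 for CG4049, -1.48 for Pdf and 0.99 for Wnk.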

How the results depend on the processing

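The number of genes called, 21 of 4483 tested in the main fit, was 365 of 10186 without the filter (59 higher). It was 40 of 4812 without libraries under 100000 counts and 11 of 5026 in the trend. Without the libraries that stand apart it was 64 of 4462, and without these and the shallow one 54 of 4889. With each library left out it ran from 19 (without the male 1 hr replicate 2) to 74 (without the male 1 hr replicate 1). It was 20 to 29 with DESeq2, its size factors, all 24 libraries or no sex term. After adjustment 0 genes were called in all of these but the unfiltered fit, with 2 (CG41128 and Dsk, both lower). With the replicate block it was 16, and 7 instead of 9 in females, 135 in males, 133 for the sex difference and 175 for the strain difference.

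Without the filter 81 of 10186 genes were called in females, 608 in males and 395 for the sex difference. For the strain difference 483 of 10476 were called. In the same order 0, 29, 12 and 8 passed after adjustment. For Dro the adjusted p of the sex difference (edgeR, Benjamini-Hochberg) was 7.84e-08 without the filter and 0.418 to 1.00 under the other settings. Without the libraries that stand apart 37 of 4462 genes were called in females, 359 in males and 263 for the sex difference. For the strain difference 272 of 4594 were called. After adjustment there were 3 in males (AMPdeam, Membrin and cac, all lower) and 7 for the strain difference. The male contrast then lacked the male 1 hr replicate 2 and the male 4 hr replicate 1. Its few early libraries included the shallow male 1 hr replicate 3 with 59781 counts. With each library left out the range was 7 to 37 in females (highest without the female 4 hr replicate 2), 144 to 399 in males, 60 to 429 for the sex difference and 124 to 429 for the strain difference, the highest of these 3 without the male 1 hr replicate 2, and 0 after adjustment throughout.

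Of 460 values of single genes under 22 settings, 291 kept their direction and call, 165 kept only the direction and 4 turned. CG1640 turned to 0.020 and Dsk to 0.20 without the libraries that stand apart, and Dsk to 0.41 and Npc1a to 0.022 without these and the shallow one. The medians of 29 of 34 lists took both signs over the settings, among them antimicrobial peptides (-0.23 to 0.42), photoreceptors (-0.36 to 0.08) and the vacuolar pump (-0.26 to 0.12). Causes were not tested. Most called genes had few counts in a library. The median standard error over all genes was 0.32, so differences under 2-fold were often not detectable. Differences over 2-fold, such as that of Wnk, did not pass after adjustment either. The part of depth in this was not tested.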
